A study of Homo sapiens with 6 samples.

Results

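Potassium, sodium and calcium channel subunits were measured in 4 cell lines of atypical teratoid/rhabdoid tumor (AT/RT), an embryonal brain tumor usually marked by loss of the chromatin remodelling subunit SMARCB1. Members were every gene whose symbol follows the naming of the KCN potassium channel families, of the sodium channel SCN alpha and beta subunits, or of the CACN calcium channel alpha-1, alpha-2/delta, beta and gamma subunits. This gave 134 members of 36532 genes, of which 95 were potassium, 14 sodium and 25 calcium channel subunits, and together they had 827 annotated transcripts. The lines CHLA 06, CHLA 05, CHLA 04 and CHLA 02 were each represented by 1 biological sample, grown without a further treatment in DMEM:F12 medium with EGF, basic FGF and a B-27 supplement, and total RNA was sequenced. CHLA 04 and CHLA 06 each had 2 technical replicates, so the 4 lines gave 6 libraries. The study places CHLA 02, CHLA 04 and CHLA 05 in the SHH molecular group of AT/RT and CHLA 06 in another group. The study describes all 4 lines as lacking SMARCB1 expression. All lines are tumor-derived cultures, no line carried a transgene or restored SMARCB1, and no normal tissue was sequenced here.

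Voltage-gated sodium channels carry the rapid upstroke of the action potential, potassium channels repolarize the membrane and set its resting potential, and calcium channels couple depolarization to calcium entry, secretion and gene expression. Each channel is built around pore-forming alpha subunits, and auxiliary subunits set its trafficking, gating and position in the membrane. Some potassium channels open with voltage, others with intracellular calcium (the large-conductance BK, the small-conductance SK and the intermediate-conductance IK channels), and inward rectifier and tandem-pore (K2P) channels conduct at rest. Many of these genes are known from neurons, glia and muscle, and many carry binding sites of the neuronal repressor REST.

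Levels are in TPM, a share of all transcripts of a library that accounts for transcript length, summed over the transcripts of a gene. Libraries held 10265899 to 20520229 reads on transcripts, and 3 reads in a library were taken as the floor for a gene without a read. The spread between cultures of a line was not measured. Errors are the SD of 2 technical replicates for CHLA 04 and CHLA 06 and, for CHLA 02 and CHLA 05, Wilson 95% intervals that cover counting error only. No test between lines was possible with 1 biological sample per line. Among members with at least 10 reads in both technical replicates, 50 of 63 agreed within 2-fold in CHLA 04 (79.4%, against 91.1% of all genes) and 44 of 52 in CHLA 06 (84.6%, against 96.5%). Although the study describes these lines as lacking SMARCB1 expression, reads were assigned to its transcripts. They gave 13.5 TPM in CHLA 02, 26.2 and 22.1 TPM in CHLA 04, 16.3 TPM in CHLA 05 and 17.3 and 16.2 TPM in CHLA 06. A level summed over transcripts does not show a mutation or the protein, and whether these reads come from an intact transcript was not tested.

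The library labelled CHLA 02 lay between CHLA 04 and CHLA 06. Genes with at least 10 reads in a library were compared between CHLA 06 and CHLA 04. Every CHLA 06 library had to lie at least 2 units of log2(TPM + 1), 4-fold in TPM + 1, above or below every CHLA 04 library. Of the 8 members higher in CHLA 06 by this rule, all 8 had a CHLA 02 level between those of the 2 lines. Of the 13 members lower in CHLA 06, all 13 did. CHLA 05 lay between them for 4 of 8 and 8 of 13 members. Over all genes higher or lower by this rule, CHLA 02 lay between for 88.9% and 97.1%, and CHLA 05 for 62.9% and 68.8%. A non-negative weighted sum of the other lines, fitted to CHLA 02 over 13098 genes that were no members, took weights of 0.335 for CHLA 04, 0.0206 for CHLA 05 and 0.615 for CHLA 06. On the log2(TPM + 1) scale it came within 1 unit (2-fold) of the CHLA 02 value for 96.7% of these genes. The same fit to CHLA 04, CHLA 05 or CHLA 06 came within that range for 80.7%, 79.2% and 86.8%. Among 52 members with at least 5 TPM in a line, 48 were within it, and the exceptions were CACNA1I, CACNG4, KCNC1 and SCN4B, all lower in CHLA 02 than the sum. In the fits to CHLA 04, CHLA 05 and CHLA 06, 29, 18 and 33 of the 52 members were within it. Whether this library holds RNA of other lines was not tested. Calls among members and partners are given with and without it. Calls among cell type markers are given without it, with the changes on including it, and counts of detection over all 4 lines include it.

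**Figure D1:**
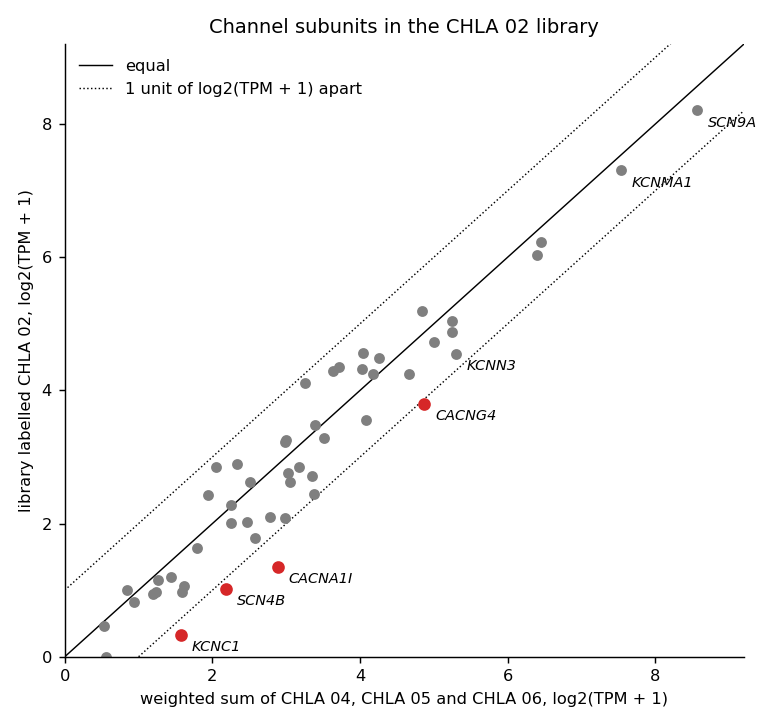
Level of 52 channel subunits in the library labelled CHLA 02 (y axis, log2(TPM + 1)) against the weighted sum of the other 3 lines (x axis, log2(TPM + 1)). The solid line marks equality and the dotted lines a distance of 1 unit; the 4 subunits beyond it (red) all lie below, and the other 48 lie between the dotted lines.

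A member was taken as detected in a line when its level was at least 1 TPM in every library of that line. By this measure 56 of 134 members were detected in CHLA 02 (41.8%, against 39.7% of all genes), 56 in CHLA 04 (41.8%, against 37.2%), 64 in CHLA 05 (47.8%, against 39.2%) and 40 in CHLA 06 (29.9%, against 36.5%). CHLA 06 therefore had the fewest detected subunits and CHLA 05 the most. In all 4 lines 26 members were detected, 77 in at least 1 line and 57 in none, and 13 members had no read in any library. Of all 36532 genes, 11924 were detected in all 4 lines and 15799 in at least 1. CHLA 04 and CHLA 05 shared 24 detected members that CHLA 06 lacked, while 6 were detected in CHLA 06 and in neither of these. The same overlap was not counted over all genes, so whether it is particular to channel subunits was not tested. The median member level was 0.405 TPM in CHLA 02, 0.543 TPM in CHLA 04, 0.829 TPM in CHLA 05 and 0.171 TPM in CHLA 06, beside 0.0716, 0.0688, 0.0509 and 0.0543 TPM over all genes. The summed level went the other way. CHLA 06 had the highest sum, at 1497 TPM, followed by CHLA 05 with 1196 TPM, CHLA 02 with 1061 TPM and CHLA 04 with 896 TPM. In CHLA 06 the 3 highest members held 68.0% of that sum, against 33.2% in CHLA 04, 43.8% in CHLA 05 and 49.4% in CHLA 02. In bulk RNA, fewer cells of a kind and less RNA per cell cannot be told apart.

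**Figure D2:**
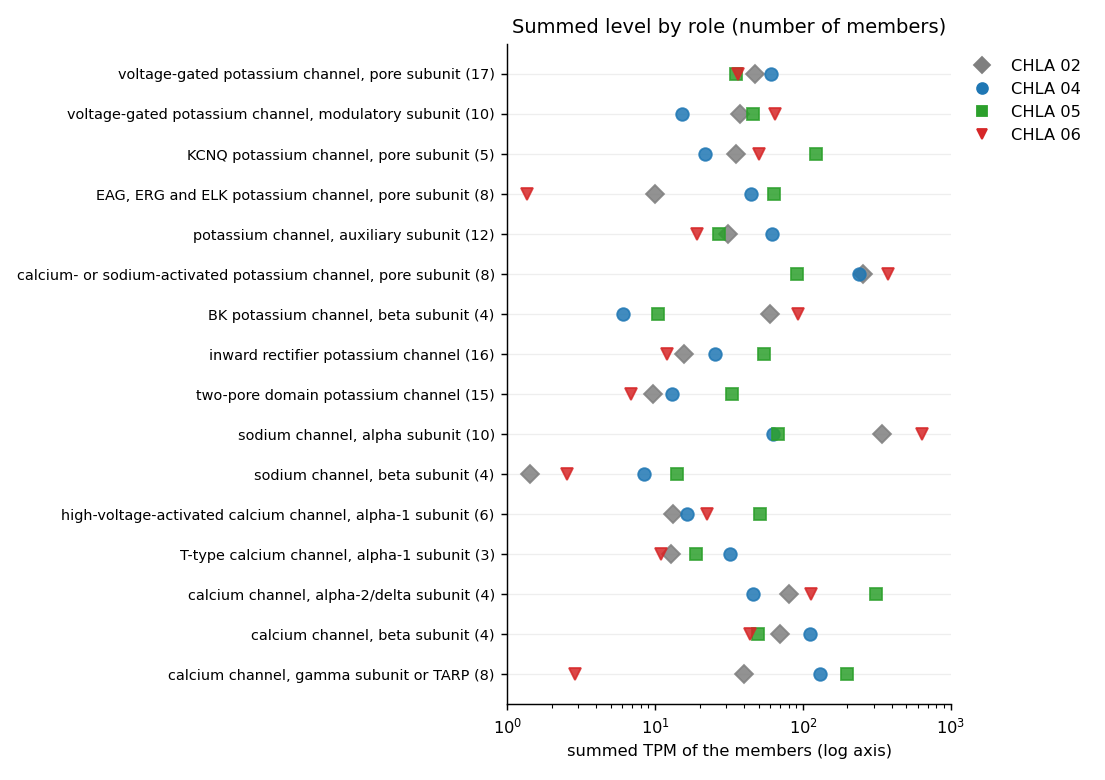
Summed TPM (x axis, log scale) of the channel subunits of each role (y axis, number of members in parentheses) in the 4 lines, with technical replicates averaged. Sodium channel alpha and BK beta subunits were highest in CHLA 06 (642 and 92.4 TPM), while the EAG, ERG and ELK channels (1.36 TPM) and the gamma subunits (2.88 TPM) were lowest there.

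Differences between lines were described by a fixed rule. It covered the 90 members with at least 10 reads in a library. A call of high or low needed a distance of at least 2 units of log2(TPM + 1), which is 4-fold in TPM + 1. Every library of the line had to lie that far above or below every library of the other lines. The other 44 members did not reach 10 reads. With all 6 libraries, CHLA 06 had 5 low members, CACNA1H, CACNG4, CACNG7, KCNH2 and KCNN3 (5.56%, against 2.38% of all genes), and 0 high members (0.111% of all genes). CHLA 05 had 6 high members, among them KCND3, KCNH7, KCNJ4, KCNJ8 and KCNK9 (6.67%, against 2.01%), and 0 low members (0.430%). CHLA 04 had 0 high members (0.111%) and 1 low member, KCNQ5 (1.11%, against 0.861%). CHLA 02 had 0 high members, where the rule called 0.00615% of all genes, a count of 1 gene, the interferon-induced MX1, and 0 low members (0% of all genes). Without the CHLA 02 library, CHLA 06 had 7 high members, CACNA2D3, KCNG3, KCNJ12, KCNMA1, KCNMB2, KCNMB4 and SCN9A (7.78%, against 3.45%). Its low members were then 8, which held the 5 above, CACNA1C and KCNH3 (8.89%, against 3.72%). CHLA 05 kept the same 6 high members (6.67%, against 2.10%) and 0 low members (0.438%). CHLA 04 had 2 high members, CACNB2 and KCNJ10 (2.22%, against 1.30%), and the 1 low member KCNQ5 (1.11%, against 1.02%).

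**Figure D3:**
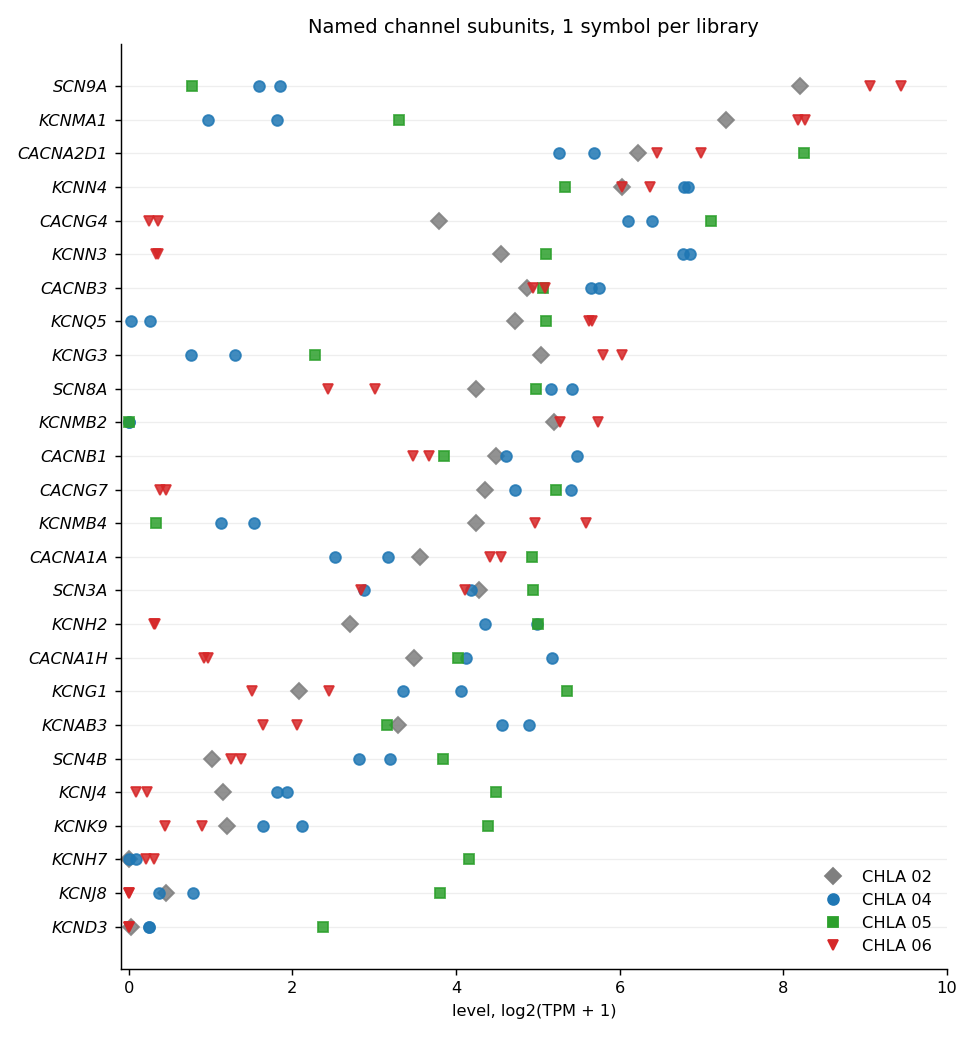
Level of 26 named channel subunits (y axis, ordered by their mean) as log2(TPM + 1) (x axis), 1 symbol per library. SCN9A, KCNMA1, KCNG3, KCNMB2 and KCNMB4 were high in CHLA 06 with CHLA 02 next to it, KCNN3, CACNG4, CACNG7 and KCNH2 were near 0 in CHLA 06, and KCNQ5 was near 0 in CHLA 04.

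SCN9A, the alpha subunit of a sodium channel known from nociceptive neurons, was the most abundant member of all in CHLA 06. Its level was 695 and 531 TPM in the 2 CHLA 06 libraries, 294 TPM in CHLA 02, 2.59 and 2.01 TPM in the CHLA 04 libraries and 0.711 TPM in CHLA 05. The CHLA 06 mean of 613 ± 116 TPM (SD, n = 2 technical replicates) was 267-fold above the CHLA 04 mean of 2.30 ± 0.411 TPM (SD, n = 2 technical replicates) and 862-fold above CHLA 05, differences larger than the spread between technical replicates. Of its summed TPM, 79.5% lay on 1 protein-coding transcript of 9768 bp with 27 exons. The gene lies on the minus strand at chr2:166195185-166375993 (GRCh38). SCN8A, a sodium channel of the axon initial segment and nodes, ran the other way, with 41.7 and 34.8 TPM in CHLA 04, 30.5 TPM in CHLA 05, 17.9 TPM in CHLA 02 and 4.40 and 7.05 TPM in CHLA 06. SCN3A, the alpha subunit typical of the embryonic brain, reached 29.7 TPM in CHLA 05, and its technical replicates overlapped between CHLA 04 (17.1 and 6.31 TPM) and CHLA 06 (16.3 and 6.16 TPM). SCN2A was within 4.88 to 8.36 TPM in every library. Of the sodium channel beta subunits, SCN4B alone was detected, in all 4 lines, with 13.3 TPM in CHLA 05, 7.09 ± 1.49 TPM in CHLA 04, 1.48 ± 0.144 TPM in CHLA 06 (SD, n = 2 technical replicates each) and 1.03 TPM in CHLA 02. CHLA 06 thus had the highest summed alpha level, 642 TPM, with a summed beta level of 2.52 TPM, and CHLA 05 had 67.8 and 14.0 TPM.

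KCNMA1, the pore-forming subunit of the BK channel, which opens with calcium and voltage together, was second in CHLA 06. It was measured at 289 and 307 TPM in CHLA 06, 157 TPM in CHLA 02, 8.84 TPM in CHLA 05 and 0.958 and 2.52 TPM in CHLA 04, with no overlap between lines. The CHLA 06 mean of 298 ± 12.8 TPM (SD, n = 2 technical replicates) was 171-fold that of CHLA 04 and 33.7-fold that of CHLA 05. The BK beta subunits, which change its calcium sensitivity and inactivation, followed it in part. KCNMB2, which inactivates the channel, had 52.4 and 37.5 TPM in CHLA 06 and 35.6 TPM in CHLA 02, and no read in CHLA 04 or CHLA 05. Against 3 reads per library as the floor, CHLA 06 was at least 106-fold above CHLA 04 and at least 164-fold above CHLA 05. KCNMB4, the neuronal beta subunit, had 47.2 and 30.2 TPM in CHLA 06, 18.0 TPM in CHLA 02, 1.90 and 1.19 TPM in CHLA 04 and 0.259 TPM in CHLA 05. KCNMB3 stayed between 4.12 and 10.3 TPM in every library, but 37.9% of its exon bases overlap PIK3CA on the other strand, and KCNMB1 had no read. For KCNMB2, 32.1% of the exon bases overlap another annotated gene on the same strand. The antisense gene KCNMB2-AS1 had 12 and 10 reads in CHLA 04 and none in CHLA 06, and the strand setting of the counting is not stated.

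Small- and intermediate-conductance channels had another order. KCNN3, an SK channel of neurons, was at 108 and 115 TPM in CHLA 04, 33.4 TPM in CHLA 05, 22.4 TPM in CHLA 02 and 0.265 and 0.278 TPM in CHLA 06. The CHLA 04 mean of 111 ± 5.40 TPM was 411-fold the CHLA 06 mean of 0.271 ± 0.00913 TPM (SD, n = 2 technical replicates each). KCNN4, the IK channel, was abundant throughout, at 113 and 109 TPM in CHLA 04, 81.4 and 64.5 TPM in CHLA 06, 64.1 TPM in CHLA 02 and 39.2 TPM in CHLA 05. Transcripts typed as protein-coding in the GENCODE v44 annotation held 22.6% of its TPM. Another 57.1% lay on a transcript with no match there, whose type was not known, so the protein-coding share is a lower bound.

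Promoter sequences of SCN9A, KCNMA1, KCNMB2 and KCNN3 are printed because these subunits had some of the widest differences between CHLA 06 and CHLA 04, the first 3 higher and KCNN3 lower in CHLA 06. They are RefSeq sequences of GRCh38.p14, from 250 bases before to 50 bases after the start, 5′ to 3′ on the strand of the gene, with CG dinucleotides in capitals. They are at chr2:166375895-166376194 (minus strand) for SCN9A, chr10:77637759-77638058 (minus strand) for KCNMA1, chr3:178536186-178536485 (plus strand) for KCNMB2 and chr1:154870232-154870531 (minus strand) for KCNN3.
SCN9A: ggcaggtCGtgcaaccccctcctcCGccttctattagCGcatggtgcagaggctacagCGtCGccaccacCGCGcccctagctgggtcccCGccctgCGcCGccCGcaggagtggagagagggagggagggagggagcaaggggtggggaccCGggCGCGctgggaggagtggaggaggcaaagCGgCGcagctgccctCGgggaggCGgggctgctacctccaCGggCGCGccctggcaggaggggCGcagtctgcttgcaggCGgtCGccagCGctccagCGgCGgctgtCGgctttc
KCNMA1: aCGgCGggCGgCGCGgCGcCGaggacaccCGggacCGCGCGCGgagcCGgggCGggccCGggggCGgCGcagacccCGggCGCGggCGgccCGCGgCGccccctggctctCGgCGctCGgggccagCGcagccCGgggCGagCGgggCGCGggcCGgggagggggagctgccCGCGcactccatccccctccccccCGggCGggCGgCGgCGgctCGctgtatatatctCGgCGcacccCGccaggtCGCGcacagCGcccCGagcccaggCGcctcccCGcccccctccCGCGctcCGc
KCNMB2: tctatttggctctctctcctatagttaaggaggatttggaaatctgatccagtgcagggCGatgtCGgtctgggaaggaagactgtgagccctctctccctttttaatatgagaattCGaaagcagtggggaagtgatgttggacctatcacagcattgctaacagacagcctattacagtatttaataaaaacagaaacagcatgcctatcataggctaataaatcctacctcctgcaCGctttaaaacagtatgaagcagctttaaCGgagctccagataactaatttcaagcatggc
KCNN3: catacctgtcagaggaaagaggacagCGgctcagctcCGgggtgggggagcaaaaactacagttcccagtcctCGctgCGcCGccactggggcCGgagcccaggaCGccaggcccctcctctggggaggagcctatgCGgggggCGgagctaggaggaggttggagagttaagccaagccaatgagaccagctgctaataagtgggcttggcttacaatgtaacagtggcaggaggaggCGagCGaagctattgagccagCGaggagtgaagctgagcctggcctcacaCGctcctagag
The 4 windows held 28 (SCN9A), 54 (KCNMA1), 5 (KCNMB2) and 13 (KCNN3) CG dinucleotides, against a median of 14.0 over all 27305 promoters. KCNMA1 was at the 99.5th percentile of all promoters and KCNMB2 at the 30.5th, although both genes were highest in CHLA 06 and next highest in CHLA 02. GGGCGG (the GC-box), searched on both strands, was found 7 times in KCNMA1, 2 times in SCN9A, 1 time in KCNN3 and not in KCNMB2, and 44.6% of all promoters held it. CACGTG (the E-box, 7.43% of all promoters) and TATAAA (12.0%), searched likewise, were in none of the 4 windows. Promoters were matched for 96 of 134 members. Their median CG count was 19.0, with 22.5 for the 62 members that had at least 10 reads in a library and 9.50 for the other 34, as a description.

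KCNQ5, a pore subunit of the channels that carry the slow M current and restrain firing, was nearly absent from CHLA 04. It was at 49.6 and 48.4 TPM in CHLA 06, 33.3 TPM in CHLA 05 and 25.4 TPM in CHLA 02, and at 0.194 and 0.0220 TPM in CHLA 04, where the 2 libraries held 4 and 1 reads. KCNQ3, another subunit of the M channel, did not pass 0.132 TPM in the mean of any line.

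The ether-a-go-go families (EAG, ERG and ELK) were the potassium channel group with the lowest sum in CHLA 06, 1.36 TPM against 63.3 TPM in CHLA 05 and 44.8 TPM in CHLA 04, and none of its 8 members was detected in CHLA 06. KCNH2, the ERG channel that repolarizes the heart, had 30.9 TPM in CHLA 05, 30.8 and 19.4 TPM in CHLA 04, 5.54 TPM in CHLA 02 and 0.252 and 0.244 TPM in CHLA 06. CHLA 05 was at the upper of the CHLA 04 values, and CHLA 04 was 101-fold and CHLA 05 125-fold above CHLA 06. KCNH3, an ELK channel of the forebrain, had 19.1 and 12.2 TPM in CHLA 04, 7.81 TPM in CHLA 05, 3.27 TPM in CHLA 02 and 0.434 and 1.06 TPM in CHLA 06. KCNH7, another ERG channel, was at 16.8 TPM in CHLA 05 from 299 reads, and no other library held more than 4 reads.

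Among the remaining voltage-gated potassium channels, KCND1 and KCND3, both A-type channels, went opposite ways. KCND1 was at 22.1 and 19.9 TPM in CHLA 06, 22.7 TPM in CHLA 02, 8.76 and 6.75 TPM in CHLA 04 and 1.98 TPM in CHLA 05. KCND3 was at 4.20 TPM in CHLA 05 and at most 0.192 TPM in every other library. The silent subunits KCNG3 and KCNG1, which form no channel alone and modify other voltage-gated channels, also differed. KCNG3 was at 64.2 and 54.5 TPM in CHLA 06, 31.8 TPM in CHLA 02, 3.86 TPM in CHLA 05 and 0.694 and 1.47 TPM in CHLA 04, and KCNG1 reached 39.8 TPM in CHLA 05 against 1.83 and 4.45 TPM in CHLA 06. The auxiliary subunit KCNAB3 was at 28.8 and 22.6 TPM in CHLA 04 and between 2.11 and 8.76 TPM in the other lines.

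Inward rectifier channels summed to 54.1 TPM in CHLA 05, 25.5 TPM in CHLA 04, 15.7 TPM in CHLA 02 and 12.0 TPM in CHLA 06, and 6 of 16 were detected in CHLA 05 and in CHLA 04. K2P channels summed to 33.0, 12.9, 9.66 and 6.86 TPM in the same order. KCNJ4, an inward rectifier of neurons, was at 21.5 TPM in CHLA 05 (interval 19.2 to 24.1), 2.52 and 2.81 TPM in CHLA 04, 1.23 TPM in CHLA 02 and 0.0626 and 0.170 TPM in CHLA 06. KCNJ8, the pore subunit of an ATP-sensitive channel, was at 13.0 TPM in CHLA 05 (interval 11.4 to 14.9), 0.297 and 0.728 TPM in CHLA 04, 0.375 TPM in CHLA 02 and without a read in CHLA 06. KCNK9, an acid-sensitive K2P channel, was at 20.0 TPM in CHLA 05 (interval 17.8 to 22.5), 2.13 and 3.34 TPM in CHLA 04, 1.29 TPM in CHLA 02 and 0.356 and 0.855 TPM in CHLA 06. For all 3 genes CHLA 05 stood apart from every other library. KCNJ10, the inward rectifier of astrocytes and oligodendrocytes, was at 9.55 and 7.22 TPM in CHLA 04, 4.40 TPM in CHLA 02, 0.869 TPM in CHLA 05 and 1 read in each CHLA 06 library. KCNJ12 had a mean of 7.29 ± 1.01 TPM in CHLA 06 (SD, n = 2 technical replicates) and 0.0926 to 3.07 TPM elsewhere, a value that is uncertain because KCNJ18 is a near-identical copy.

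Calcium channel pores were led by CACNA1A, the channel of presynaptic terminals, with 29.5 TPM in CHLA 05, 20.4 and 22.4 TPM in CHLA 06, 10.8 TPM in CHLA 02 and 7.97 and 4.73 TPM in CHLA 04. CACNA1C, the L-type channel of heart and brain, was at 19.0 TPM in CHLA 05, 4.97 and 4.14 TPM in CHLA 04, 0.954 TPM in CHLA 02 and 0.123 and 0.213 TPM in CHLA 06. Of the T-type channels, which open near rest, CACNA1H was lowest and CACNA1I highest in CHLA 06. CACNA1H was at 35.0 and 16.4 TPM in CHLA 04, 15.3 TPM in CHLA 05, 10.2 TPM in CHLA 02 and 0.900 and 0.953 TPM in CHLA 06. CACNA1I was at 11.9 and 7.40 TPM in CHLA 06, 1.22 and 1.61 TPM in CHLA 04, 1.54 TPM in CHLA 02 and 0.130 TPM in CHLA 05.

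CACNA2D1, an alpha-2/delta subunit that brings calcium channels to the membrane, was the most abundant member in CHLA 05. It was at 303 TPM there (interval 298 to 309), 126 and 87.1 TPM in CHLA 06, 73.6 TPM in CHLA 02 and 50.6 and 37.3 TPM in CHLA 04. Its relative CACNA2D3 had 5.19 and 7.89 TPM in CHLA 06 and 6.44 TPM in CHLA 02, with no read in CHLA 04 or CHLA 05. The fold over CHLA 04 was at least 24.4 for CHLA 06. Transcripts typed as protein-coding in GENCODE v44 held 26.0% of the CACNA2D3 level, and 9 of its 12 transcripts had a match there. Of the beta subunits, which bind the pore from inside the cell, CACNB3 varied little, from 28.3 TPM in CHLA 02 to 52.6 TPM in a CHLA 04 library. CACNB1 had 43.6 and 23.4 TPM in CHLA 04 and 10.1 to 21.5 TPM elsewhere, of which 47.4% lay on retained-intron transcripts. CACNB2 had 33.0 and 13.4 TPM in CHLA 04, 16.2 TPM in CHLA 02, 1.96 TPM in CHLA 05 and 1.19 and 1.09 TPM in CHLA 06.

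The gamma subunits, several of which are TARPs that carry AMPA receptors to synapses, summed to 199 TPM in CHLA 05, 130 TPM in CHLA 04 and 39.8 TPM in CHLA 02, against 2.88 TPM in CHLA 06. CACNG4 was at 138 TPM in CHLA 05, 67.5 and 83.0 TPM in CHLA 04, 12.9 TPM in CHLA 02 and 0.191 and 0.277 TPM in CHLA 06. CHLA 05 was 588-fold and CHLA 04 321-fold above CHLA 06. CACNG7 was at 36.3 TPM in CHLA 05, 41.5 and 25.3 TPM in CHLA 04, 19.4 TPM in CHLA 02 and 0.367 and 0.305 TPM in CHLA 06. CACNG8 followed with 15.9 TPM in CHLA 05, 25.1 and 12.8 TPM in CHLA 04, 6.19 TPM in CHLA 02 and 1.91 and 2.61 TPM in CHLA 06, the only gamma subunit detected in that line.

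Several members are neighbours on a chromosome, and their levels were set side by side. SCN9A and SCN7A, an atypical sodium channel, lie 27580 bp apart on chromosome 2. SCN7A was at 4.28 and 1.69 TPM in CHLA 06 and 2.81 TPM in CHLA 02, which lay between the CHLA 06 replicates. It had no read in CHLA 04 or CHLA 05, so both genes were higher in CHLA 06 and CHLA 02 than in CHLA 04 and CHLA 05. SCN1A, 67138 bp away on the other side of SCN9A, did not show this order, with 0.506 to 1.56 TPM as line means. On chromosome 17, CACNG5 and CACNG4 are 79424 bp apart, and CACNG5 was at 7.65 TPM in CHLA 05, 1.89 ± 0.118 TPM in CHLA 04 (SD, n = 2 technical replicates), 1.01 TPM in CHLA 02 and without a read in CHLA 06. On chromosome 19, CACNG7, CACNG8 and CACNG6 follow each other at 19099 and 2073 bp, and each had a lower mean in CHLA 06 than in any other line.

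**Figure D4:**
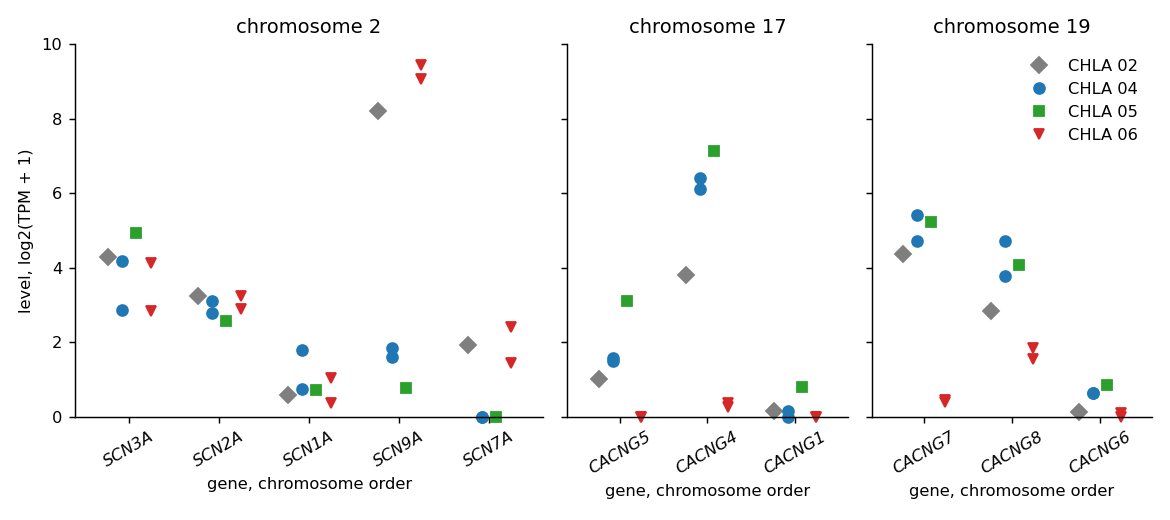
Level as log2(TPM + 1) (y axis) of neighbouring sodium channel genes on chromosome 2 and gamma subunit genes on chromosomes 17 and 19 (x axis, in chromosome order), 1 symbol per library. SCN9A and SCN7A were higher in CHLA 06 and CHLA 02 than in CHLA 04 and CHLA 05. SCN7A, at 2.99 TPM in the CHLA 06 mean and 2.81 TPM in CHLA 02, was not called. The 6 gamma subunit genes were highest in CHLA 04 or CHLA 05.

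Reads on long terminal repeat (LTR) elements inside the members gave a separate view of the same RNA. LTR elements are remnants of retroviruses, and the study mapped reads to them apart from genes. Inside members and outside every other gene lay 2839 elements, mostly in introns, of which 877 had the strand of the gene. They held 0.607% and 0.515% of the LTR reads in CHLA 06, 0.688% in CHLA 05, 0.193% and 0.192% in CHLA 04 and 0.306% in CHLA 02. Elements on the strand of the gene alone held 0.496% and 0.463%, 0.644%, 0.164% and 0.169%, and 0.273% in that order. CACNA2D1 held the most. Its elements took 1969 reads in CHLA 05, then 665 and 464 reads for CHLA 06, 402 reads for CHLA 02 and 281 and 361 reads for CHLA 04, the same order as its TPM. KCNMA1 elements had 651 and 803 reads in CHLA 06 and 287 reads in CHLA 02, against 17 reads for CHLA 05 and 1 and 5 for CHLA 04. Of these, an LTR12C element at chr10:77589566-77590753 on the strand of KCNMA1 had 162 and 179 reads in CHLA 06. KCNQ5 elements had 490 and 499 reads in CHLA 06, 176 in CHLA 02, 145 in CHLA 05 and none in CHLA 04, and KCNN3 elements had 68 and 122 reads in CHLA 04 and none in CHLA 06. SCN7A differed in the orientation of the elements with reads. Its elements had 373 and 120 reads in CHLA 06 and 38 in CHLA 02, of which 1 read lay on an element with the strand of the gene. A THE1C-int element at chr2:166436534-166438066 on the plus strand held 216, 77 and 21 of these reads. The strand of the reads themselves is not known.

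**Figure D5:**
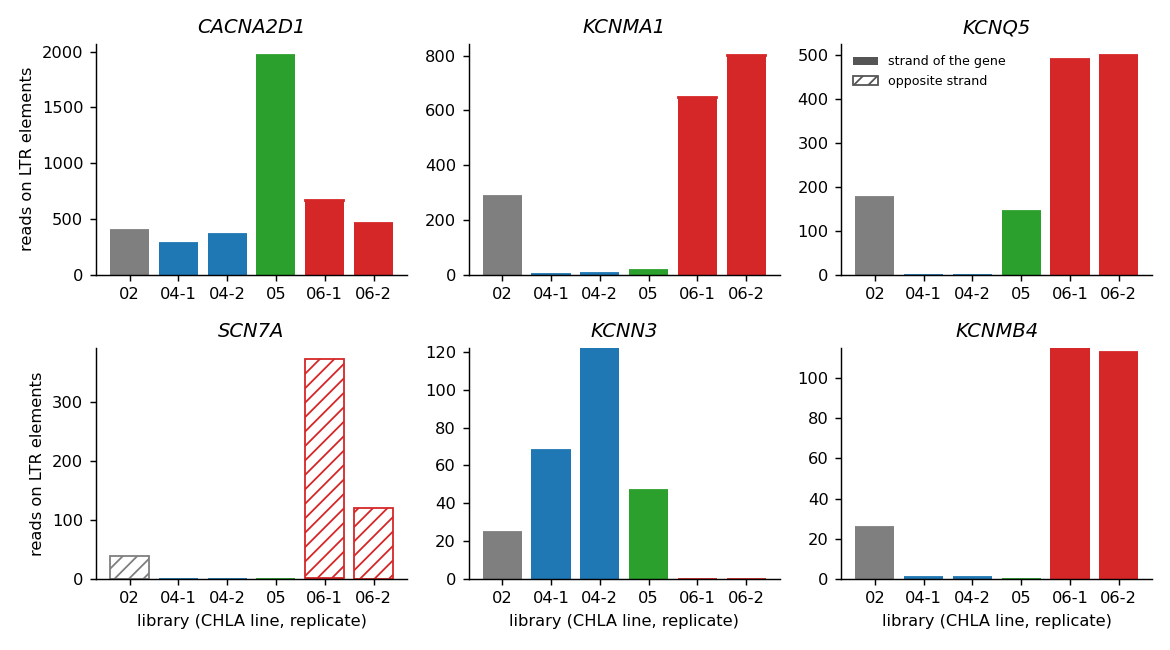
Reads on LTR elements inside 6 channel genes (y axis, not scaled to depth, each panel with its own range from 0) in the 6 libraries (x axis, CHLA line and replicate). Filled bars are elements on the strand of the gene and hatched bars those on the opposite strand. CACNA2D1 peaked in CHLA 05 (1969 reads), KCNMA1 and KCNQ5 in CHLA 06, and nearly all SCN7A reads lay on elements of the opposite strand.

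Partners of these channels were counted from a list of 48 genes that assemble with or anchor channel subunits, of which 39 had at least 10 reads in a library. For CHLA 05, 4 of the 39 were called high with or without the CHLA 02 library (2.10% of all genes without it), namely ABCC9, DPP6, KCTD12 and UNC80, and none of the 39 was called low in any line. ABCC9, the sulfonylurea receptor that assembles with KCNJ8, was at 77.9 TPM in CHLA 05 and below 1 TPM in every other library, as KCNJ8 was. DPP6, an auxiliary subunit of A-type channels such as KCND3, was at 8.81 TPM in CHLA 05 and at most 0.0626 TPM elsewhere. Without the CHLA 02 library, 2 of the 39 were high in CHLA 06, ANK3 and LRRC38, where the rule called 3.45% of all genes, so the count is near that share. In CHLA 04, 3 were high, CABP1, FGF12 and HCN4 (1.30% of all genes). With that library included, none of these 5 was called. ANK3, the ankyrin that anchors sodium channels at the axon initial segment, was at 786 and 562 TPM in CHLA 06, 353 TPM in CHLA 02, 3.19 and 0.972 TPM in CHLA 04 and 2.58 TPM in CHLA 05, the order of lines seen for SCN9A except between CHLA 04 and CHLA 05. LRRC38, an auxiliary gamma subunit of the BK channel, was at 8.13 and 5.09 TPM in CHLA 06 and at most 0.677 TPM elsewhere. REST and 11 genes that act with it were detected in all 4 lines and none was called, with REST itself at 105 TPM in CHLA 02, 85.6 and 90.7 TPM in CHLA 04, 80.6 TPM in CHLA 05 and 102 and 96.0 TPM in CHLA 06.

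Markers of cell types differed between the lines as well, in both directions, and calls among them are given without the CHLA 02 library. Without it, 3.45% of all genes were high and 3.72% low in CHLA 06, and 2.10% were high in CHLA 05. At least 10 reads in a library were reached by 13 of 15 neuronal and 10 of 10 progenitor markers. So did 8 of 12 astrocyte and oligodendrocyte, 5 of 12 muscle and heart and 2 of 8 blood and vessel markers. Of 15 neuronal markers, 9 were detected in CHLA 02 as in CHLA 04, 11 in CHLA 05 and 6 in CHLA 06, with summed levels of 586, 1038, 1434 and 439 TPM. MAP2 and INA were low in CHLA 06, where MAP2 was at 7.20 and 5.41 TPM against 298 to 915 TPM in the other libraries. The neurofilament genes NEFL and NEFM were low in CHLA 04 instead (1.02% of all genes). NEFL was at 3.84 and 3.34 TPM there and 22.8 and 24.8 TPM in CHLA 06, and NEFM at 0.916 and 0.353 TPM and 11.0 and 13.6 TPM. INA was also high in CHLA 05, and TUBB3 was at 205 to 455 TPM throughout.

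Of 10 progenitor markers, 9, 8, 9 and 5 were detected in the order CHLA 02, 04, 05 and 06, and FABP7, MSI1, PAX6 and SOX9 were low in CHLA 06 while SOX9 was also high in CHLA 05. Their summed level was nonetheless highest in CHLA 06, at 17145 TPM against 14721, 8371 and 10459 TPM in the other lines. VIM made up most of it, with 19464 and 14708 TPM in CHLA 06, 13742 TPM in CHLA 02, 4629 and 4990 TPM in CHLA 04 and 8430 TPM in CHLA 05. Of 12 astrocyte and oligodendrocyte markers, 5, 5, 7 and 2 were detected, with summed levels of 381, 547, 1327 and 27.2 TPM. AQP4, GFAP and SLC1A3 were low in CHLA 06, and OLIG1, OLIG2 and S100B were high in CHLA 05. MBP, a myelin gene, was high in CHLA 06, at 23.9 and 22.3 TPM, with 31.9 TPM in CHLA 02, no read in CHLA 04 and 0.267 TPM in CHLA 05. Of 12 muscle and heart markers 2, 1, 3 and 1 were detected, with TNNI3 high and ACTN2 low in CHLA 06 and ACTN2 high in CHLA 05. Of 8 blood and vessel markers 1, 1, 0 and 1 were detected, and none of the 2 with at least 10 reads was called. With the CHLA 02 library included, MBP and TNNI3 were not called high and INA and ACTN2 not called low in CHLA 06. NEFL was then not called low in CHLA 04. The part of these marker differences in the channel results was not tested.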

How the data were processed

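Total RNA of the 4 cell lines was converted to stranded libraries and sequenced in pairs. Per the labels, base calling used CASAVA 1.8.2 and reads were checked with FastQC and trimmed with Trimmomatic. The authors mapped reads to GRCh38 with the CLCbio Genomics Workbench, whose version and strand setting are not given in the sources used here, and deposited TPM per Ensembl transcript and, from a separate mapping, TPM per LTR element. Technical replicates had not been pooled.

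For each gene identifier, TPM of its transcripts were added with Python 3.11.15, pandas 2.3.3, numpy 2.4.6 and SciPy 1.17.1, and figures were drawn with matplotlib 3.10.9. TPM times length fell on whole multiples of 1 step per library, and the multiple was taken as the read count. Between 99.237% and 100% of transcript values were whole within 0.02, and 355302 to 511408 reads per library lay on LTR elements. The recovery and the rule for calls were run on simulated data with counting error only and with large differences planted in well-covered genes. That setting did not cover planted differences at low counts or the spread between technical replicates. No line was compared by a test, and calls are descriptions with a pseudocount of 1 TPM. Because short and long transcripts differ in the TPM that 1 read is worth, low values of short genes are the least precise. Overlapping genes and near-identical copies can share reads. CACNA1S lies outside the naming rule and reached at most 0.657 TPM.

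Members named by rule were those called high or low in a line, the 20 with the highest mean level, the highest of each role and the 3 highest of each line. Some members that this rule selects are not reported here. Other members, partners and markers were named after their values were seen. The members and the lists were chosen with earlier results of these data known. Alternatives were other thresholds, pseudocounts, the most abundant transcript of a gene, TPM rescaled by the median ratio over 11924 genes, leaving out each technical replicate and, added after seeing the data, leaving out the CHLA 02 library.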

Additional observations from a re-analysis of the deposited data

How the results depend on the processing

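The count of detected members stayed within 1.5 times its value in each line under every alternative run. Counts of called members moved more. The share of all genes called was counted for the main rule and for leaving out the CHLA 02 library alone. It was not counted under the other alternatives, so those counts describe the members only. With a pseudocount of 0.1, the members high were 1 in CHLA 04, 11 in CHLA 05 and 1 in CHLA 06, and those low were 2 in CHLA 04, 1 in CHLA 05 and 13 in CHLA 06. At 2-fold in TPM + 1, the members high were 3 in CHLA 04, 13 in CHLA 05 and 1 in CHLA 06, and those low were 3, 1 and 13. From the most abundant transcript alone, 3 members were low in CHLA 06. Leaving out a technical replicate gave 1 to 2 members low in CHLA 04 and 0 to 1 high in CHLA 06. Without the CHLA 02 library, 2 members were high in CHLA 04 and 7 in CHLA 06, and 8 were low in CHLA 06. With that library left out, a pseudocount of 0.1 gave 2 low in CHLA 04, 11 high and 1 low in CHLA 05 and 22 low in CHLA 06. A pseudocount of 2 gave 0 high in CHLA 04, and the most abundant transcript gave 1. For CHLA 06, a pseudocount of 2 gave 6 low, without CACNA1C and KCNH3, and 5 high, without CACNA2D3 and KCNJ12. Rescaled TPM gave 6 low in CHLA 06, again without CACNA1C and KCNH3, and 8 high. At 2-fold in TPM + 1 the members high were 7, 14 and 11 in CHLA 04, CHLA 05 and CHLA 06, and those low were 4, 1 and 24. Leaving out a technical replicate then gave 1 to 2 low in CHLA 04 and 6 to 7 high in CHLA 05, 7 to 10 high and 8 to 11 low in CHLA 06. LTR reads inside members, counted on elements with the strand of the gene, made up 0.480% of LTR reads for CHLA 06, 0.644% for CHLA 05, 0.167% for CHLA 04 and 0.273% for CHLA 02. By construction, a 2-fold distance or a pseudocount of 0.1 can only add calls, and a pseudocount of 2 can only remove them. Elements on the strand of the gene are a part of all elements, so their share cannot be larger. The cause of the other changes was not tested. Of 112 levels of named members, 79 moved beyond their error with the most abundant transcript. That transcript is a part of the summed level, so a lower value was built in for genes with reads on more than 1 transcript. With rescaled TPM, which shifted libraries by -0.10 to 0.12 on the log2 scale, 17 of the 112 levels moved.

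No paired analysis was possible because the replicate numbers of CHLA 04 and CHLA 06 mark technical repeats within a line and no test between lines was made. With 1 biological sample per line, differences between lines include those between cultures. Depth limits the low members, of which 44 did not reach 10 reads in any library. Strand setting, overlapping genes and the nature of the library labelled CHLA 02 limit single values.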
